A study of Mus musculus with 4 samples.

Results

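The genes described here build the machinery that brings proteins into mitochondria and folds them there. They were chosen by name from the genes with a deposited rlog value: every gene whose symbol began with Timm or Tomm and a number, together with Hspd1, Hspe1, Hspa9, Grpel1, Trap1, Clpp, Clpx, Lonp1, Phb, Phb2, Pmpca, Pmpcb, Akap1, Chchd4 and Samm50. This gave 38 of the 9546 genes with an rlog value, and all 38 were among the 9608 genes tested from the counts. The count table held 41 symbols that match the rule. The other 3 lay below the filter of 10 counts over the libraries, with 0 counts in every library for Tomm20l and Timm8a2 and a single count in all for Tomm6os.

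Messenger RNA was compared between activated splenic CD4+ T cells that had switched on Il10 and activated cells that had not. All mice were Tg4 Nr4a3-Tocky IL-10 GFP mice, in which T cells bear a transgenic receptor for a peptide of myelin basic protein, a fluorescent Timer protein that reports Nr4a3 induction downstream of that receptor, and EGFP that reports Il10. All received 4 mg/kg of [4Y]-MBP peptide under the skin. Timer+ CD4+ T cells were sorted 24 h later into Il10-EGFP+ and Il10-EGFP- cells, with 2 libraries of each population from replicate mice. Both populations therefore carry the same alleles and the same treatment, no unimmunised cells were compared here, and the populations are 2 gates of responding cells that carry 1 transgenic receptor. The study's methods speak of a biological replicate pair that was removed, so its libraries may be paired by mouse. Whether the libraries numbered alike came from the same mouse is not stated in the sources used here. The main test did not pair them, and a replicate block was fitted as an alternative. The total was between 644679 and 730330 counts per library. Il10 itself had 0 and 0 counts in the Il10-EGFP- pair of libraries against 29 and 41 in the Il10-EGFP+ pair, in the direction of the labels.

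Most mitochondrial proteins are made in the cytosol and carried across the mitochondrial membranes. The TOM complex is the common entry gate of the outer membrane, with receptors (Tomm20, Tomm22, Tomm70a) around a pore (Tomm40). From there the TIM23 complex passes precursors into the matrix, where the chaperone Hspa9 pulls them in and the Hspd1-Hspe1 chaperonin folds them, while the small TIM chaperones escort carrier proteins to the TIM22 complex. Presequences are removed by the Pmpca-Pmpcb peptidase, and damaged proteins are degraded by Lonp1 and Clpp. T cells are known to build up mitochondria after activation.

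Of the 38 genes, 6 were lower in Il10-EGFP+ cells at an adjusted p under 0.05 and 0 were higher. They were Akap1, Tomm70a, Hspd1, Phb2, Hspa9 and Timm10, which act at the outer membrane, in the intermembrane space, in the matrix and in the inner membrane. Over all genes tested, 1.74% were called lower and 2.35% higher by the same test, edgeR's quasi-likelihood test, with p-values adjusted by the method of Benjamini and Hochberg, and 4.09% in either direction. For the import and folding genes the share called lower was 15.8%. At an unadjusted p under 0.05, 10 of the 38 were lower and 0 higher, and 7.49% of all genes tested were lower at that level. DESeq2's Wald test called 3 of the 38, Akap1, Tomm70a and Hspd1, and limma on the deposited rlog values called the same 3, and neither called a gene higher. In a bulk library a lower level in each cell cannot be told apart from fewer cells that express the genes strongly.

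The sequence around the start of the called genes is shown first, to show which short motifs these genes share there. Each window is taken from RefSeq (GRCm38.p6), runs from 250 bases before to 50 bases after the annotated start, and is written along the gene's own strand. Windows were found for 34 of the 38 genes and for 5 of the 6 called genes. Capitals mark 3 short motifs, searched on both strands: CCGGAAG, the core bound by ETS factors, CACGTG, the E-box, and GCATGCG, a part of the NRF1 motif. Hspd1 and Hspe1 lie head to head and share their start region, so the window of Hspe1 at chr1:55087898-55088197 (+ strand) stands for both. Tomm70a is at chr16:57121464-57121763 (+ strand), Timm10 at chr2:84826771-84827070 (+ strand), Phb2 at chr6:124712039-124712338 (+ strand) and Akap1 at chr11:88864537-88864836 (- strand).
Hspe1: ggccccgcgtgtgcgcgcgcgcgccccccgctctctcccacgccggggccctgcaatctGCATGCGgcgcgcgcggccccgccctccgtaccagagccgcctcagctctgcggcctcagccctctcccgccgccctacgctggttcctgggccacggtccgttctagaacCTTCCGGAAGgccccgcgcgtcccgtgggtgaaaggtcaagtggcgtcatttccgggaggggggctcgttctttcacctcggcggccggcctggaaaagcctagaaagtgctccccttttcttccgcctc
Tomm70a: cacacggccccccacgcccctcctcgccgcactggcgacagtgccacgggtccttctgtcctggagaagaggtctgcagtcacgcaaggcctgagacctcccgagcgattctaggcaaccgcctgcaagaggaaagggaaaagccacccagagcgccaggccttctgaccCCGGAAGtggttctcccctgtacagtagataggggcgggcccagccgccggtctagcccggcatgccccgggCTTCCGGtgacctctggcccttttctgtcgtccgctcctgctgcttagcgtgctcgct
Timm10: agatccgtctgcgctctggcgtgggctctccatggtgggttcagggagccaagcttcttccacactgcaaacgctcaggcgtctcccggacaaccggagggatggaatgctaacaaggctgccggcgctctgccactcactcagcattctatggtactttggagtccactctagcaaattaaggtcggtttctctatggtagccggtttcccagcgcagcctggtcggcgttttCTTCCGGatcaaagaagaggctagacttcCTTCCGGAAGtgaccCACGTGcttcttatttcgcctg
Phb2: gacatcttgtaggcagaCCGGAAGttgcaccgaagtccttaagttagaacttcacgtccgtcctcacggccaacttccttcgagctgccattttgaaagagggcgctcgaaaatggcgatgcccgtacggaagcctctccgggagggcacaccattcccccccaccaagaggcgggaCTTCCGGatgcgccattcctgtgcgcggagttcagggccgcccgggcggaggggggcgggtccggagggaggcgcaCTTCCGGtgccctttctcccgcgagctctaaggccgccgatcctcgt
Akap1: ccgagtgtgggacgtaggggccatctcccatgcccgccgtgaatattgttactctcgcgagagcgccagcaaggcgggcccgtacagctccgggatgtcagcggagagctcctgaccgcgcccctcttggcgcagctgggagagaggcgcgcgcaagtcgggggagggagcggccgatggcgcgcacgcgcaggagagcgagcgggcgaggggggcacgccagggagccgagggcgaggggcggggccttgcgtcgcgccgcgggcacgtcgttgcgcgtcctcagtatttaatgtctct

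The ETS core was present in the windows of Hspd1, Tomm70a, Timm10 and Phb2, that is, 4 of the 5 called genes with a window, and it was not found in that of Akap1. In the window of Hspe1 a pair of matches on opposite strands overlap within CTTCCGGAAG, and the same arrangement occurs in Timm10, which has a further match upstream. Phb2 has 3 separate matches and Tomm70a has 2. Among all 34 import and folding genes with a window, 15 held the core (44.1%), as did 24.3% of the 7373 tested genes with a window and 9.93% of all genes with one. The E-box was found in 7 of the 34 genes (20.6%) and in 12.5% of tested genes, and the NRF1 part in 5 of the 34 (14.7%) and in 8.29% of tested genes. The CCAAT box, which is not capitalised, was found in 11 of the 34 (32.4%) and in 43.4% of tested genes. These are matches of letters and say nothing of whether a factor was bound.

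The Hspd1 and Hspe1 windows have 285 of their bases in common, and their starts lie 216 bases apart. RefSeq lists a second Hspd1 start whose window, chr1:55088194-55088493 (- strand), holds an E-box. Hspd1 (chr1:55077835-55088243, - strand) and Hspe1 (chr1:55088132-55091307, + strand) overlap at these ends, while the 3′ ends that the libraries read lie at the far sides of the pair.

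Tomm70a, the receptor that takes chaperone-bound carrier precursors at the outer membrane, was lower in Il10-EGFP+ cells. It had 301 and 299 counts in the Il10-EGFP- pair of libraries against 157 and 194 in the Il10-EGFP+ pair, so every Il10-EGFP+ library lay below every Il10-EGFP- library. In CPM, its counts scaled to a common library size with TMM factors, its level was 422.4 ± 19.6 (SD, n = 2) in Il10-EGFP- and 264.3 ± 22.0 in Il10-EGFP+ cells, 37.3% lower. The log2 fold change was -0.67 (SE 0.15, 95% interval -0.98 to -0.37, adjusted p = 0.00322, edgeR's quasi-likelihood test). The call was lost when Il10-EGFP+ replicate 1 was left out (-0.59, adjusted p = 0.0771). The gene spans chr16:57121703-57156705 on GRCm38 and overlaps Nit2 on the opposite strand, which itself had at most 9 counts in a library.

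The other 9 outer membrane genes did not pass the test. Tomm7, a small subunit that stabilises the pore complex, was among the genes with the most counts, with 439 and 565 counts in the Il10-EGFP- pair of libraries against 406 and 475 in the Il10-EGFP+ pair. Its values overlapped between the populations, and its log2 fold change of -0.09 had a 95% interval of -0.37 to 0.18 (SE 0.14, adjusted p = 0.837) and turned to 0.16 without Il10-EGFP- replicate 2. Tomm40, the pore itself, had 96 and 73 counts against 55 and 74, and Tomm22, the central receptor, had 55 and 52 against 33 and 50. Tomm20, the presequence receptor, had 33 and 10 counts against 12 and 12, so its log2 fold change of -0.72 rested on a single library. Samm50, which inserts barrel proteins into the outer membrane, had 148 and 108 counts against 126 and 114, with a log2 fold change of 0.02 (95% interval -0.35 to 0.38, adjusted p = 0.983). Over the 10 genes grouped as outer membrane genes the median log2 fold change was -0.28, with 7 below 0 and 3 above. The range ran from -0.77 (Tomm5) to 0.09 (Tomm34). Tomm34 stands in this group by name, and where its protein lies was not measured. The summed level of the 10 genes was 1640 and 1811 CPM in the Il10-EGFP- pair of libraries against 1461 and 1477 CPM in the Il10-EGFP+ pair.

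**Figure D1:**
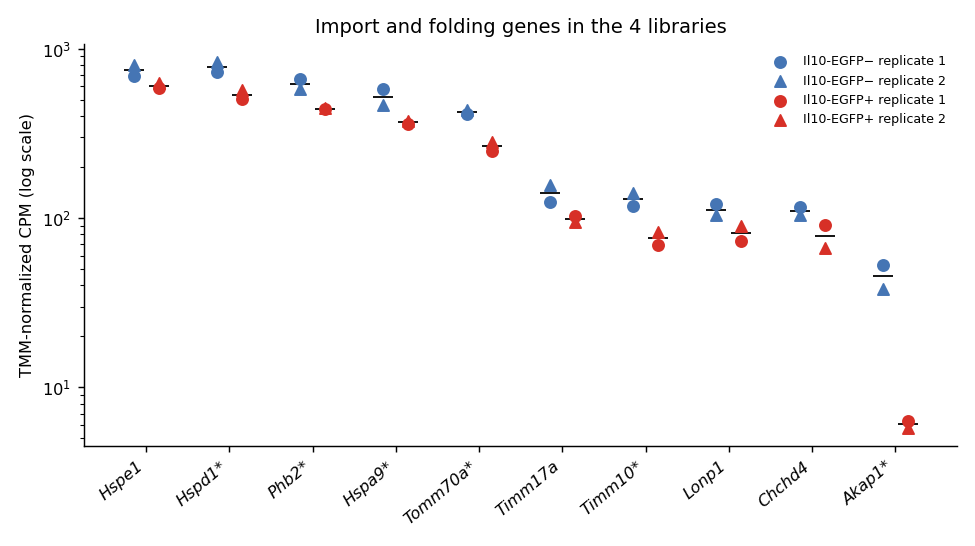
Each point is 1 library's level of 1 gene in TMM-normalized CPM (vertical axis, log scale) for the 10 genes with an unadjusted p under 0.05, an asterisk marks the 6 called genes, and the bars are means of the 2 libraries of a population. In all 10 genes both Il10-EGFP+ libraries (red) lie below both Il10-EGFP- libraries (blue), and Akap1 is farthest apart.

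Among the small TIM chaperones and the carrier pathway, Timm10 was lower. With Timm9 it forms the ring that shields carrier proteins on their way through the intermembrane space. Timm10 had 87 and 96 counts in the Il10-EGFP- pair of libraries against 44 and 57 in the Il10-EGFP+ pair, and the populations did not overlap. Its level was 129.1 ± 15.5 CPM (SD, n = 2) against 76.0 ± 8.85 CPM, 40.8% lower, with a log2 fold change of -0.76 (SE 0.23, 95% interval -1.21 to -0.31, adjusted p = 0.0393, edgeR's quasi-likelihood test). Of the 6 called genes it lay closest to the threshold. Leaving out any of the 4 libraries, whether Il10-EGFP- replicate 1 or 2 or Il10-EGFP+ replicate 1 or 2, gave an adjusted p between 0.0615 and 0.276 and a log2 fold change between -0.88 and -0.63. The gene lies at chr2:84826997-84830213 (GRCm38, + strand).

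The other members of this group did not pass the test. Timm9 had 83 and 71 counts against 47 and 64, below in both Il10-EGFP+ libraries, with a log2 fold change of -0.37 (95% interval -0.83 to 0.09, adjusted p = 0.472). Chchd4, the oxidoreductase that traps small TIM proteins in the intermembrane space by forming their disulfides, had 86 and 71 counts against 57 and 46, that is 110.2 ± 9.29 against 78.3 ± 16.9 CPM, with a log2 fold change of -0.50 (SE 0.23, 95% interval -0.97 to -0.03, adjusted p = 0.275). Both of these genes had values that did not overlap. Timm10b, a further small TIM subunit attached to the TIM22 complex, had 80 and 97 counts against 97 and 63, and Timm8b had 68 and 81 against 54 and 92. Their log2 fold changes were -0.04 (SE 0.22, 95% interval -0.48 to 0.40, adjusted p = 0.976) and 0.06 (SE 0.23, 95% interval -0.39 to 0.52, adjusted p = 0.941), and their signs turned with single libraries left out. Timm10b was at 0.16 with Il10-EGFP- replicate 2 dropped and at 0.30 with Il10-EGFP+ replicate 2 dropped. Timm8b was at -0.11 with Il10-EGFP- replicate 1 dropped and at -0.29 with Il10-EGFP+ replicate 2 dropped. Timm22, the channel of the carrier translocase, had 22 and 36 counts against 18 and 23. Of the 9 genes in the group, 8 had a log2 fold change below 0, and the median was -0.37. In 5 of the 9, both Il10-EGFP+ libraries lay below both Il10-EGFP- libraries. Over all genes tested, 50% had a log2 fold change below 0, and 22.3% had both Il10-EGFP+ libraries below.

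The 6 genes of the inner membrane translocase all had log2 fold changes below 0, between -0.80 (Timm23) and -0.25 (Timm44), with a median of -0.49, and none was called at an adjusted p under 0.05 by edgeR, DESeq2 or limma. Timm17a, a channel subunit of TIM23, had 92 and 107 counts in the Il10-EGFP- pair of libraries against 65 and 66 in the Il10-EGFP+ pair, that is 140.5 ± 22.1 against 99.1 ± 5.50 CPM. It was the only one of the 6 without overlap, and its log2 fold change of -0.50 (SE 0.21, 95% interval -0.92 to -0.08) had an unadjusted p of 0.0207 and an adjusted p of 0.206 in edgeR's quasi-likelihood test. Timm44, which anchors the import motor to the channel, had 73 and 61 counts against 62 and 42, with a log2 fold change of -0.25 (SE 0.25, 95% interval -0.75 to 0.24, adjusted p = 0.705) that was 0.061 without Il10-EGFP+ replicate 2. Timm50, the receptor of the complex, had 51 and 28 counts against 19 and 34. Timm23, the name-giving channel subunit, had 15 and 6 counts against 7 and 4. The 3′ end of Timm23 shares 989 of its 1428 words of 50 bases with Gm10273, which had 0 counts in every library. Reads from that stretch cannot be assigned with certainty, and how many there were was not measured. The counts of Timm23 and its log2 fold change are therefore uncertain. The summed level of the group was 409.9 and 373.5 CPM in the Il10-EGFP- pair of libraries against 301.1 and 282.8 CPM in the Il10-EGFP+ pair.

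Of the 5 matrix chaperones, Hspd1 and Hspa9 were lower in Il10-EGFP+ cells. Hspd1 (HSP60), the barrel of the chaperonin, had 535 and 569 counts in the Il10-EGFP- pair of libraries against 316 and 393 in the Il10-EGFP+ pair. That is 778.2 ± 73.5 against 533.8 ± 46.9 CPM, 31.3% lower, with a log2 fold change of -0.54 (SE 0.14, 95% interval -0.81 to -0.27, adjusted p = 0.0101, edgeR's quasi-likelihood test). Both Il10-EGFP+ libraries lay below both Il10-EGFP- libraries. Leaving out Il10-EGFP- replicate 2 gave -0.44 with an adjusted p of 0.123, and leaving out Il10-EGFP+ replicate 1 gave -0.45 with 0.192. The 3′ end of Hspd1 shares 295 of its 881 words of 50 bases with the pseudogene Hspd1-ps3, which had between 4 and 17 counts in a library, so reads from that stretch cannot be assigned with certainty, and how many there were was not measured.

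Hspa9 (mortalin), the Hsp70 of the import motor, had 427 and 317 counts in the Il10-EGFP- pair of libraries against 226 and 260 in the Il10-EGFP+ pair. Its level was 521.1 ± 82.8 against 366.6 ± 12 CPM, 29.7% lower, and again the populations did not overlap. The log2 fold change was -0.51 (SE 0.15, 95% interval -0.80 to -0.22, adjusted p = 0.0304, edgeR's quasi-likelihood test). The adjusted p was 0.418 without Il10-EGFP- replicate 1, the library with the highest value, where the log2 fold change was -0.33. Leaving out either Il10-EGFP+ library lost the call too, with 0.197 for replicate 1 (-0.47) and 0.113 for replicate 2 (-0.54). Nothing of this size was seen in Grpel1, the nucleotide exchange factor that works with Hspa9, which had 39 and 38 counts against 36 and 37 and a log2 fold change of 0.03. The 95% interval of Grpel1, -0.56 to 0.61, includes the value of Hspa9, and its 3′ end shares all 351 of its words with the overlapping gene Tada2b, so its counts are uncertain.

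Hspe1 (HSP10), the lid of the chaperonin, had 510 and 550 counts in the Il10-EGFP- pair of libraries against 370 and 432 in the Il10-EGFP+ pair. The populations did not overlap, at 747.4 ± 77.9 against 604.8 ± 26.1 CPM, but the log2 fold change of -0.30 (SE 0.13, 95% interval -0.57 to -0.04) did not pass the adjusted threshold (unadjusted p = 0.0267, adjusted p = 0.235, edgeR's quasi-likelihood test). Trap1, the Hsp90 of the matrix, had 35 and 23 counts against 18 and 21. The 5 matrix chaperones summed to 2098 and 2184 CPM in the Il10-EGFP- pair of libraries against 1531 and 1649 CPM in the Il10-EGFP+ pair, the largest summed level of the 6 roles.

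**Figure D2:**
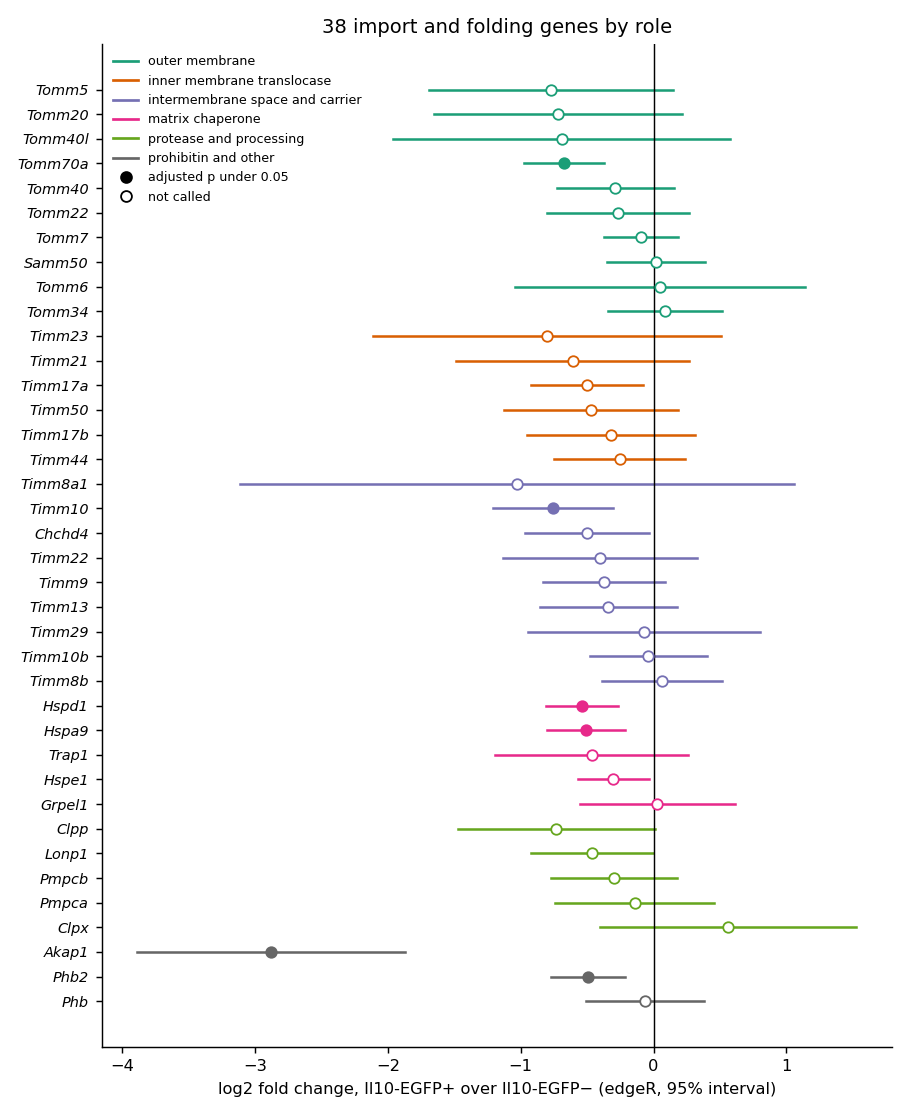
Points give the log2 fold change of Il10-EGFP+ over Il10-EGFP- cells for each of the 38 genes, lines its 95% interval from edgeR, colours the role, and filled points an adjusted p under 0.05. Of the 38 points 32 lie left of 0, and the intervals of the genes with few counts, such as Timm8a1, are the widest.

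The 5 genes of the proteases and the processing peptidase had none past the threshold by edgeR, DESeq2 or limma, and 1 at an unadjusted p under 0.05. Lonp1, the main protease of the matrix, had 89 and 71 counts against 46 and 62, that is 112.2 ± 12.2 against 81.2 ± 11.7 CPM, without overlap. Its log2 fold change was -0.46 (SE 0.23, 95% interval -0.92 to -0.01, unadjusted p = 0.0473, adjusted p = 0.313, edgeR's quasi-likelihood test). Clpp, the proteolytic barrel, had 31 and 30 counts against 20 and 14 and a log2 fold change of -0.73 (adjusted p = 0.336), whereas Clpx, the unfoldase that feeds it, had 10 and 13 against 11 and 21 and the highest log2 fold change of all 38 genes, 0.56 (95% interval -0.40 to 1.53, adjusted p = 0.648). Pmpcb, the catalytic subunit of the processing peptidase, had 91 and 56 counts against 51 and 60, with a log2 fold change of -0.30 (SE 0.24, 95% interval -0.77 to 0.18, adjusted p = 0.612) that was 0.036 without Il10-EGFP- replicate 1. Its partner Pmpca had 38 and 39 counts against 30 and 35.

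Phb2, which with Phb builds the ring scaffold that holds proteases and cristae proteins in the inner membrane, was lower in Il10-EGFP+ cells. It had 487 and 395 counts in the Il10-EGFP- pair of libraries against 276 and 307 in the Il10-EGFP+ pair, that is 618.7 ± 59.9 against 440.1 ± 3.94 CPM, 28.9% lower and without overlap. The log2 fold change was -0.49 (SE 0.14, 95% interval -0.77 to -0.21, adjusted p = 0.0271, edgeR's quasi-likelihood test). The call was lost without Il10-EGFP- replicate 1 (-0.39, adjusted p = 0.264), Il10-EGFP+ replicate 1 (-0.48, 0.167) or Il10-EGFP+ replicate 2 (-0.50, 0.142). Phb had 88 and 64 counts against 65 and 70, with a log2 fold change of -0.07 (SE 0.22, 95% interval -0.51 to 0.38, adjusted p = 0.940) that was 0.13 without Il10-EGFP- replicate 1, and its interval includes the value of Phb2. Phb2 lies at chr6:124712336-124716950 (GRCm38, + strand) and overlaps the small gene Gm23547 on the same strand, with at most 13 counts in a library.

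Akap1 had the largest difference of the 38 genes. It anchors protein kinase A to the outer membrane and binds messenger RNAs of mitochondrial proteins there. It is not a subunit of the import machinery and stands in the set by name. It had 39 and 26 counts in the Il10-EGFP- pair of libraries against 4 and 4 in the Il10-EGFP+ pair, that is 45.4 ± 10.6 against 6.05 ± 0.401 CPM, 86.4% lower. The log2 fold change was -2.88 (SE 0.50, 95% interval -3.89 to -1.87, adjusted p = 0.000122, edgeR's quasi-likelihood test). It was called with each library left out in turn, with log2 fold changes between -3.09 and -2.61. The level in Il10-EGFP+ cells rests on 4 counts in each library, and on the rlog scale, which draws low counts together, the difference was -0.36. Akap1 lies at chr11:88830792-88864586 (GRCm38, - strand).

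Over the whole set, 32 of the 38 genes (84.2%) had a log2 fold change below 0, against 50% of all genes tested, and the median was -0.39 against 0.00. Both Il10-EGFP+ libraries lay below both Il10-EGFP- libraries in 17 of the 38 genes (44.7%), against 22.3% of all genes, and above them in 0 of the 38, against 22.3%. The remaining 32 genes that were not called had a median of -0.31, and 11 of them had no overlap, all in the lower direction. Members of this set act in common complexes and share libraries, so these counts describe the set and are not a test of it. Low counts widen the spread, and for the 28 genes that averaged 20 counts or more the median was -0.33, against -0.02 for all 4965 genes at that level. With single libraries left out the median ran from -0.44 to -0.22, the latter when Il10-EGFP- replicate 1 was dropped.

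**Figure D3:**
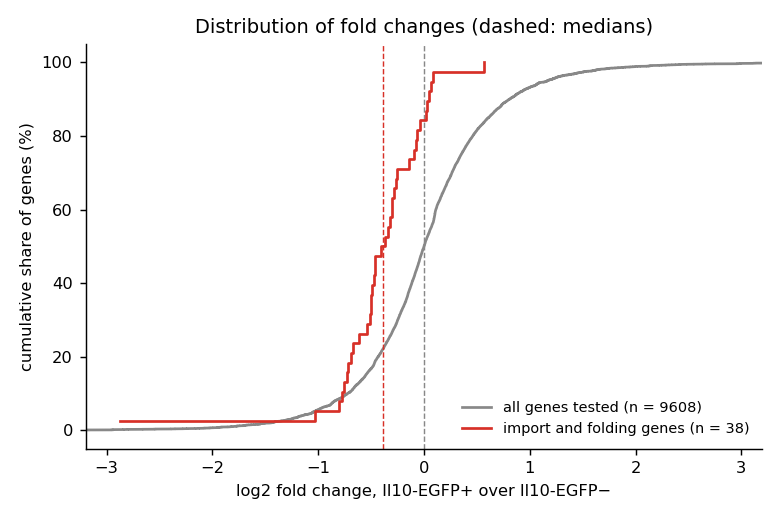
The curves give the cumulative share of genes (vertical axis, percent) up to each log2 fold change of Il10-EGFP+ over Il10-EGFP- cells for the 38 import and folding genes (red) and all 9608 genes tested (grey), and dashed lines mark the medians. The red median lies at -0.39 and the grey median at 0.00, and genes beyond the ends of the horizontal axis are not drawn.

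The summed level of the 38 genes was 6032 and 6146 CPM in the Il10-EGFP- pair of libraries against 4681 and 4827 CPM in the Il10-EGFP+ pair. As a share of all counts this was 0.608% and 0.613% against 0.458% and 0.478%. All 6 roles had lower sums in both Il10-EGFP+ libraries.

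**Figure D4:**
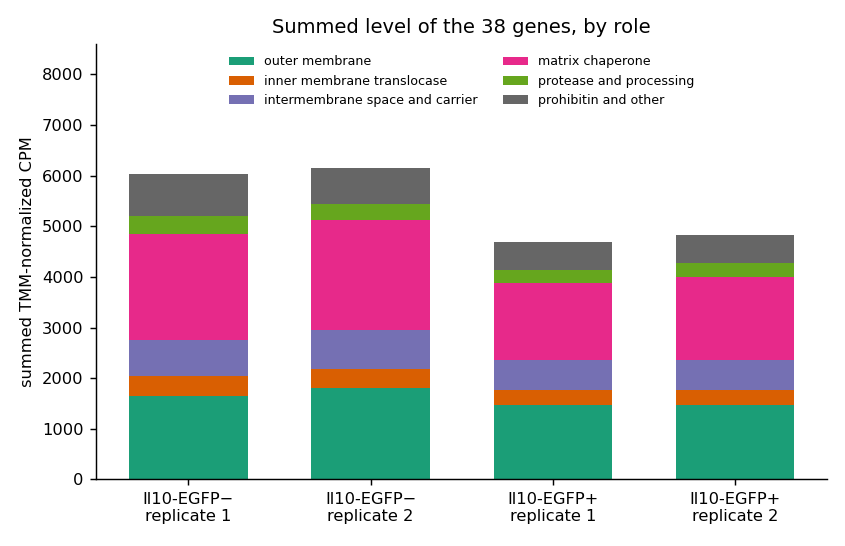
Stacked bars give the summed TMM-normalized CPM of the 38 genes in each of the 4 libraries, divided by role. Both Il10-EGFP- bars reach 6032 and 6146 CPM, both Il10-EGFP+ bars reach 4681 and 4827 CPM, and the matrix chaperones are the largest share in each.

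Several of these proteins work together, and the ratio of their counts within a library does not depend on its depth. Of the pairs compared, Timm17a and Timm17b are alternative subunits of TIM23, and Tomm70a and Tomm22 are both receptors. The 8 pairs were chosen after the values were seen. In the pairs led by Phb2, Hspd1, Timm10, Hspa9 and Tomm70a, the numerator was already called lower and the denominator was not. A lower ratio in these pairs largely repeats that call and is no further support for it. The ratio of Phb2 to Phb counts was 5.53 and 6.17 in Il10-EGFP- libraries and 4.25 and 4.39 in Il10-EGFP+ libraries. That of Hspd1 to Hspe1 was 1.05 and 1.03 against 0.854 and 0.910, and that of Timm10 to Timm9 was 1.05 and 1.35 against 0.936 and 0.891. In each of these pairs the ratio was lower in both Il10-EGFP+ libraries.

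The same held for Hspa9 to Grpel1, at 10.9 and 8.34 against 6.28 and 7.03, for Tomm70a to Tomm22, at 5.47 and 5.75 against 4.76 and 3.88, and for Clpp to Clpx, at 3.10 and 2.31 against 1.82 and 0.667. The ratios of Timm17a to Timm17b and of Pmpcb to Pmpca overlapped between the populations. For the 6 pairs without overlap the exact permutation test gave p = 0.333 (two-sided), the smallest value that 2 libraries against 2 allow, so this test could not reach a p of 0.05 here. The libraries read 3′ ends, whose counts do not scale with transcript length. How well each gene maps also enters its ratio, and whether it does so alike in all 4 libraries was not tested. The counts of Grpel1 are uncertain, and so is the ratio of Hspa9 to Grpel1.

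**Figure D5:**
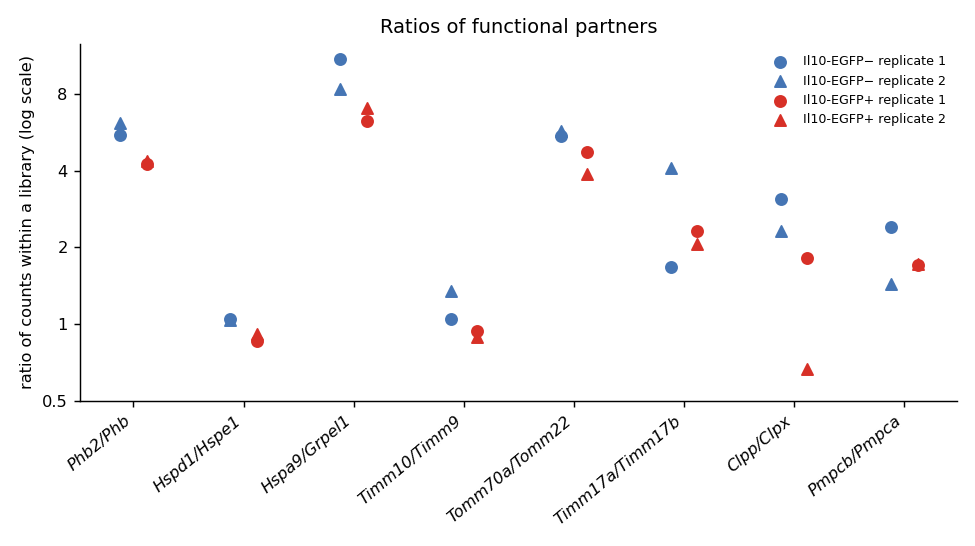
Each point is the ratio of the counts of 2 paired genes within 1 library (vertical axis, log scale), with Il10-EGFP- libraries in blue and Il10-EGFP+ libraries in red. In 6 of the 8 pairs both red points lie below both blue points, and Timm17a/Timm17b and Pmpcb/Pmpca overlap. The pairs were chosen after the values were seen.

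A separate list of 55 genes held partners of this machinery that the rule leaves out, among them the remaining motor subunits, outer membrane assembly proteins, inner membrane proteases, the cristae complex and the cytosolic chaperones that deliver precursors. Of the 52 tested, 1 was called lower and 0 higher, and the share called lower over all genes was 1.74%. At an unadjusted p under 0.05, 12 were lower, where 7.49% of all genes were, and 2 were higher. The gene called lower was Dnaja1, a cytosolic Hsp40 that hands precursors to the Tomm70a receptor. It had 260 and 245 counts in the Il10-EGFP- pair of libraries against 140 and 151 in the Il10-EGFP+ pair. Its log2 fold change was -0.69 (adjusted p = 0.00375, edgeR's quasi-likelihood test). In the list as a whole, 43 genes had a log2 fold change below 0 and 9 above, beside 50% of all genes below 0, and the median was -0.23. The 3 most abundant genes of the list did not pass the test: Hsp90ab1 had a log2 fold change of -0.08, Chchd2 of -0.23 and Hsp90aa1 of 0.15.

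Other nuclear and mitochondrial genes of the organelle were compared to place the set. The 8 tested messenger RNAs encoded by mitochondrial DNA summed to 43172 and 46004 CPM in the Il10-EGFP- pair of libraries against 48282 and 44984 CPM in the Il10-EGFP+ pair, with a median log2 fold change of 0.05. None was called by edgeR or reached an unadjusted p under 0.05 there, and limma voom called 1 higher. The nuclear subunits of oxidative phosphorylation had a median of 0.01 over 74 genes, 34 below 0 and 40 above, with none called by edgeR, DESeq2 or limma voom and 1 lower and 6 higher at an unadjusted p under 0.05. The mitochondrial ribosomal proteins had a median of -0.14 over 74 genes, 53 below 0 and 21 above. Both Il10-EGFP+ libraries lay below both Il10-EGFP- libraries in 28 of them and above in 5. Over all genes tested the share was 22.3% in each direction. Of the ribosomal genes, edgeR called 2 lower, Mrpl12 and Mrpl16, beside 1.74% of all genes, and DESeq2 called 0. At an unadjusted p under 0.05, 8 of them were lower and 0 higher. Over all 9608 genes, 720 (7.49%) were lower and 765 higher at that level. The medians of the import and folding set and of these sets were not tested against each other.

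Of 10 tested transcription factors linked to mitochondrial biogenesis, Myc and its partner Max were called lower, where 1.74% of all genes were. Max had 229 and 264 counts against 123 and 154, and its log2 fold change was -0.73 (adjusted p = 0.00286, edgeR's quasi-likelihood test), and the adjusted p was 0.0986 with Il10-EGFP- replicate 2 dropped and 0.0570 with Il10-EGFP+ replicate 1 dropped. Myc had 27 and 19 counts against 7 and 7, with a log2 fold change of -1.59 (adjusted p = 0.0465). Leaving out any of the 4 libraries gave Myc an adjusted p between 0.0710 and 0.303. Myc was not called by limma voom (adjusted p = 0.0673) or on the rlog values (adjusted p = 0.140), and DESeq2 gave it no adjusted p.

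Other features of the libraries moved with the populations. The 9 T cell markers were all detected, with Trac called higher and 5 higher at an unadjusted p under 0.05, at 3407 to 3684 summed CPM in Il10-EGFP- and 3995 to 4253 CPM in Il10-EGFP+ libraries. The B cell markers (8 of 10 tested, with Cd22, Igkc and Ighm called higher) summed to 124.9 and 199.9 CPM against 446.8 and 525.1 CPM, the plasma cell markers (4 of 5 tested, with Jchain and Iglc2 higher) to 23.1 and 23.3 against 103.0 and 98.1 CPM, and the myeloid markers (9 of 10 tested, with S100a8 and Lyz2 higher) to 111.3 and 138.6 against 385.0 and 200.5 CPM. The CD8 or NK markers (4 of 7 tested) and the erythroid markers (4 of 5 tested) had none called by edgeR, with 1 and 2 higher at an unadjusted p under 0.05. Some defining markers were near 0, with Cd79a at 2, 0, 0 and 0 counts and Adgre1 at 0 in every library. Of 20 genes of the G2/M phase, 14 were higher in Il10-EGFP+ cells, at 6484 and 6167 summed CPM against 3260 and 3082. The part of these differences in the lower level of the import and folding genes was not tested.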

How the data were processed

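Messenger RNA was measured with the QuantSeq 3′ kit in 2 libraries of each population. The authors deposited raw counts for Ensembl genes, which the BlueBee pipeline for QuantSeq FWD produced on GRCm38. The submitters' processing notes name FastQC, STAR 2.5.2a, HTSeq 0.6.0 and DESeq2. The authors also deposited rlog values on a log2 scale, made from those counts with DESeq2. Per the labels and the study's methods, molecular identifiers served to assess duplicates and remove bias from amplification. How they entered the deposited counts, the annotation release and the strand option are not given in the sources used here. A further pair of libraries that the study set aside is not analysed here. All per-sample columns were used.

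A gene was kept if its counts summed to 10 or more, which left 9608 genes. Differences were tested in edgeR 4.0.16 (R 4.3.3, TMM, glmQLFit, glmQLFTest), with Benjamini-Hochberg adjustment over all of them and a threshold of 0.05. With 2 libraries a population the error of each gene leans on the spread over all genes. The total of each library, between 644679 and 730330 counts, limits the precision of low genes. DESeq2 1.42.0 and limma 3.58.1 were alternatives, beside other filters and scalings, a replicate block and the omission of single libraries. The scripts were tested on simulated data. The members and lists were chosen with earlier results of these data known, so counts over them are descriptions. Full values are given for members past either threshold and for the 2 most abundant of each role. Gene symbols were taken from a name table, and coordinates and overlaps from GENCODE M21 on GRCm38, with shared words of 50 bases searched in the last 400 bases of each transcript. Protein sequences and the start region of Hspa9 are not shown.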

Additional observations from a re-analysis of the deposited data

How the results depend on the processing

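DESeq2's Wald test called 112 genes in all, 41 of them lower, and 3 of the import and folding genes. Limma on the rlog values called 197, 93 and 3, with a median log2 difference of -0.10 over the set on that compressed scale. At an adjusted p under 0.01 edgeR called 2 genes of the set, and the number over all genes at that threshold is not given here. Leaving out each library in turn, which leaves 1 library in a population that is assumed to vary like the others, gave 201 to 264 genes in all, 69 to 102 lower, 1 to 4 of the set, and a median between -0.44 and -0.22. No setting called a gene of the set higher. Asking for 10 counts in every library left Akap1 untested, and 5 of the 31 genes of the set still tested were called. Under that filter 428 genes were called in all, 183 of them lower.

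Libraries of the same number did not deviate together (correlation of their deviations 0.032 over 4965 genes), so the numbers were not taken to pair them. With a replicate block edgeR called 560 genes, 247 of them lower, 6 of the set and 2 of the list of partners. DESeq2 with that block called 39, 12, 0 and 0.

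Phb2, Hspa9 and Timm10 also lost their call in DESeq2 (adjusted p = 0.129, 0.193 and 0.391) and on the rlog values (0.0508, 0.0996 and 0.0641). All 6 called genes kept their direction throughout. With libraries left out in turn, signs turned for genes that were not called. The log2 fold change of Pmpcb ran from -0.56 to 0.036 and that of Phb from -0.23 to 0.13, both above 0 without Il10-EGFP- replicate 1. Tomm7 ran from -0.31 to 0.16 (without Il10-EGFP- replicate 2) and Timm44 from -0.63 to 0.061 (without Il10-EGFP+ replicate 2). Timm8b ran from -0.29 (without Il10-EGFP+ replicate 2; -0.11 without Il10-EGFP- replicate 1) to 0.34, and Timm10b from -0.45 to 0.30 (without Il10-EGFP+ replicate 2; 0.16 without Il10-EGFP- replicate 2). The cause of these changes was not tested. Timm8a1 and Timm23, with the fewest counts of the set, had the largest standard errors (1.04 and 0.65).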

Other observations

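Of 14 genes of the mitochondrial stress response, 9 were tested and none was called by edgeR, DESeq2 or limma, with 1 lower and 1 higher at an unadjusted p under 0.05. Atf4, a transcription factor of that response, had 521 and 375 counts in the Il10-EGFP- pair of libraries against 371 and 315 in the Il10-EGFP+ pair (log2 fold change -0.27). Atf5, which induces mitochondrial chaperones under import stress, had 5 and 6 counts against 12 and 13 (log2 fold change 1.27, adjusted p = 0.289). Mthfd2, a mitochondrial folate enzyme, had 207 and 136 against 136 and 184, and its values overlapped. The median over the 9 genes was 0.06.

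Further factors linked to mitochondrial biogenesis were not called. Nrf1 had 44 and 29 counts against 29 and 24, Gabpa had 18 and 27 against 24 and 33, and Tfam had 103 and 130 against 132 and 115, and the values of all of these overlapped between the populations. Pprc1, a coactivator related to Ppargc1a, had 32 and 44 counts against 21 and 20, without overlap, and a log2 fold change of -0.79 (unadjusted p = 0.0236, adjusted p = 0.222, edgeR).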
